A study of Mus musculus with 151 samples.

Results

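The oocytes of naturally conceived female mice (Natural) were compared between 12 and 39 weeks of age. Members were all single-oocyte libraries whose treatment label reads Natural, which gave 36 oocytes at 12 weeks and 9 at 39 weeks, 45 of the 151 samples in the series. The text of the series counts 30 Natural oocytes at 12 weeks and 10 at 39 weeks, and the labels were followed here. Both ages came from the same type of cross, a CF-1 mother and a B6/SJL father mated without assistance. The pups were delivered by cesarean section just before term and fostered to CF-1 dams, and the adult females were superovulated with eCG and hCG before the oocytes were freed from their cumulus cells and frozen one by one. The labels name no transgene or deletion for either group. IVF oocytes, used below for comparison, came from females conceived in vitro from eggs of superovulated CF-1 mice and B6/SJL sperm. Those embryos were cultured to blastocysts and transferred to pseudopregnant CF-1 recipients, and the pups were likewise delivered by cesarean section and fostered. The library names place the 12-week oocytes in 5 sets, 35_1 (8 oocytes), 35_3 (8), 92_3 (5), 92_4 (8) and 92_5 (7), and name no female for the 39-week oocytes. The 2 ages were separate library batches, so age and batch cannot be told apart in any value below.

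The ovulated oocyte makes almost no RNA of its own. It lives on mRNAs laid down during growth, keeps many of them silent with RNA-binding proteins, and destroys them in waves during meiotic maturation and after fertilization. Its chromosomes have been held together by cohesin since before birth, and with maternal age the loss of cohesion, spindle errors and declining mitochondrial function become more frequent.

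Total counts per oocyte ranged from 839781 to 10879166 at 12 weeks (median 5476703.5) and from 5959480 to 18374296 at 39 weeks (median 12276020), over 35976 gene names. Levels are given as CPM (counts scaled to a common total of gene counts per oocyte or per set), and those of the 12-week sets always in the order 35_1, 35_3, 92_3, 92_4 and 92_5. Across the 15 oocyte markers, which include the growth factor gene Gdf9 and the egg coat gene Zp3, 39 of the 45 oocytes summed to between 34213 and 63804 CPM. The other 6 stood apart, with a mean Spearman correlation to their own age group of 0.53 to 0.67 against 0.76 to 0.89 for the rest. At 12 weeks these were oocytes 10 and 14 of set 35_3, oocyte 27 of set 92_4 and oocyte 30 of set 92_5, and their oocyte markers summed to 2720 to 8422 CPM. At 39 weeks they were oocytes 6 and 9, with 4091 and 7459 CPM, and these 2 libraries held 28.4% of all 39-week counts. Gdf9 ran from 109 to 269 CPM in the 4 at 12 weeks, where the other 32 oocytes held 11362 to 19609 CPM, while Zbed3, another oocyte gene, was not low in them (21289 to 53395 against 17943 to 31169 CPM). Mitochondrially encoded genes took up to 3.68% of the counts in these 4 and at most 0.788% in the other 32. Each result below was therefore also computed without these 6 oocytes, and without 6 IVF oocytes at 12 weeks that stood apart by the same limit.

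**Figure D1:**
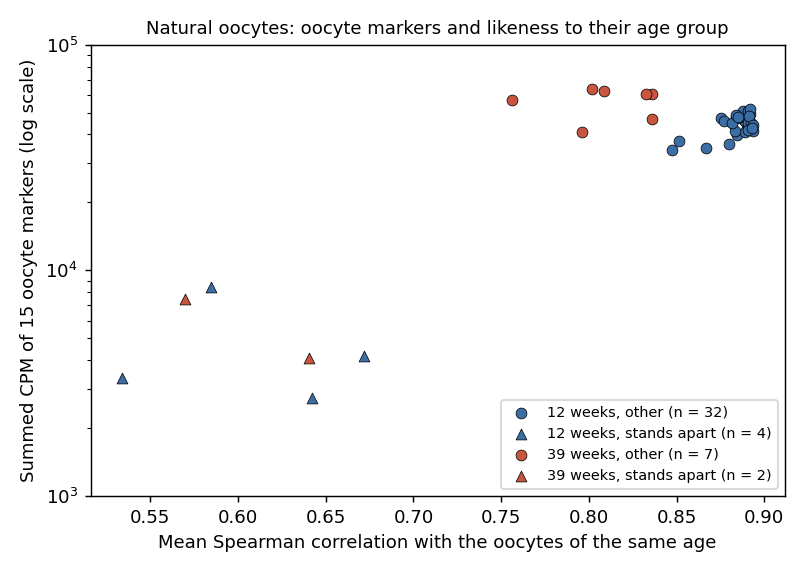
Summed level of 15 oocyte markers (CPM, log scale) against the mean Spearman correlation of each Natural oocyte with the oocytes of its age, one point per oocyte. Circles are the 32 oocytes at 12 weeks and 7 at 39 weeks with 34213 CPM or more, and triangles are the 4 and 2 oocytes that stood apart, all at 8422 CPM or less.

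Markers of blood moved with age. The 7 blood markers, chiefly the globin genes, summed to between 0 and 235 CPM per oocyte at 12 weeks (median 13.7) and to between 115 and 18370 CPM at 39 weeks (median 2023), so that the ranges overlapped. Of the 6 blood markers tested, 5 rose at 39 weeks and Slc4a1 was not called. The beta-globin gene Hbb-bt held 2.09, 7.76, 3.67, 5.57 and 8.48 CPM in the 5 sets at 12 weeks. In the 39-week oocytes its lowest, median and highest values were 15.3, 249 and 3565 CPM. All 9 of these lay above the set with the highest value, and the log2 fold change was 7.19 ± 0.92 (SE; adjusted p = 0.000263, edgeR's quasi-likelihood test with Benjamini-Hochberg adjustment). The adult globin genes come in near-identical pairs, so the split between the copies is uncertain. The 12 immune markers summed to 0.801 to 99.7 CPM at 12 weeks and 9.85 to 460.1 CPM at 39 weeks, with 1 of 11 tested called, Lyz2, the lysozyme gene of macrophages (log2 fold change 5.67). The 23 cumulus and granulosa markers summed to 49.7 to 1247 CPM at 12 weeks (median 117) and 39.5 to 380.1 CPM at 39 weeks (median 69.9). Of the 22 tested none rose and 3 fell, the Kit ligand gene Kitl (-2.29) and the cumulus matrix genes Tnfaip6 (-3.01) and Ptx3, which had 302 counts at 12 weeks, 214 of them in 1 oocyte, and none at 39 weeks. None of the 9 oviduct and epithelial markers tested was called. Of the 15 oocyte markers 2 rose, Zp1 and Zp2, and none fell. Over all genes tested 9.14% rose and 6.36% fell. Without the oocytes that stood apart 5 oocyte markers rose and 1 fell, against 11% and 8.47% of all genes. The part of blood, immune and cumulus RNA in the results below was not tested.

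After every oocyte was thinned to 839781 counts, a pair of 12-week oocytes correlated with a median Spearman coefficient of 0.914 within a set and 0.894 between sets, a pair of 39-week oocytes with 0.833, and a pair of different ages with 0.763. Without the 6 that stood apart the medians were 0.919, 0.902, 0.862 and 0.783. The number of genes with a count was similar after thinning, with medians of 10495 at 12 weeks and 10631 at 39 weeks. These are descriptions of cells that share library sets and age groups, with no test.

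Because oocytes of 1 set are not replicates, their counts were summed to 5 samples at 12 weeks, and the 9 oocytes of 39 weeks to 1 sample. The fit also held the IVF oocytes, summed in the same way. The p values then measure only the spread between the 12-week sets, Natural and IVF, and the lone 39-week sample was assumed to vary like them. On this scale 3278 of 21156 genes tested (15.5%) were called at an adjusted p below 0.05, of which 1933 (9.14%) rose and 1345 (6.36%) fell at 39 weeks. The median log2 fold change was 0.08 over all genes and -0.22 over the 6282 genes above 8 CPM. Without the oocytes that stood apart, 2215 genes (11% of those tested) rose and 1701 (8.47%) fell. The single oocytes of the 2 ages did not overlap for some genes. All 9 oocytes of 39 weeks lay above all 36 of 12 weeks for 83 genes (0.392%) and below them for 123 (0.581%). Without the 6 oocytes that stood apart, the 7 of 39 weeks lay above the 32 of 12 weeks for 333 genes (1.57%) and below them for 546 (2.58%).

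The direction of change followed the GC content of the transcripts. Genes were split into 3 equal classes by GC content, under 46.1%, up to 52.2% and above, from reference transcripts that matched 86.4% of the genes tested. The median log2 fold change was -0.43 in the lowest class, 0.17 in the middle and 0.43 in the highest. Called rises made up 3.63%, 10.0% and 14.8% of these classes, and called falls 13.5%, 5.52% and 2.76%. The same order was present in IVF oocytes (medians -0.31, 0.03 and 0.20), whereas in Natural ovaries, which were prepared with another kit, the medians were 0.04, 0.01 and -0.00. By transcript length the medians were 0.31, -0.00 and -0.16 from the shortest class to the longest. When a smooth trend over GC content and length was removed from each sample as an offset, 1438 of 18279 genes (7.87%) rose and 1078 (5.9%) fell, and the class medians were 0.08, 0.09 and -0.06. Over the 17326 genes tested in every one of the 3 fits, with all oocytes, without the oocytes that stood apart and with the offsets, 733 genes (4.23%) rose and 760 (4.39%) fell in all 3, together 8.62%. Whether the GC trend belongs to age or to the library batch cannot be told apart, and genes are described below by whether they were called in all 3 fits.

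**Figure D2:**
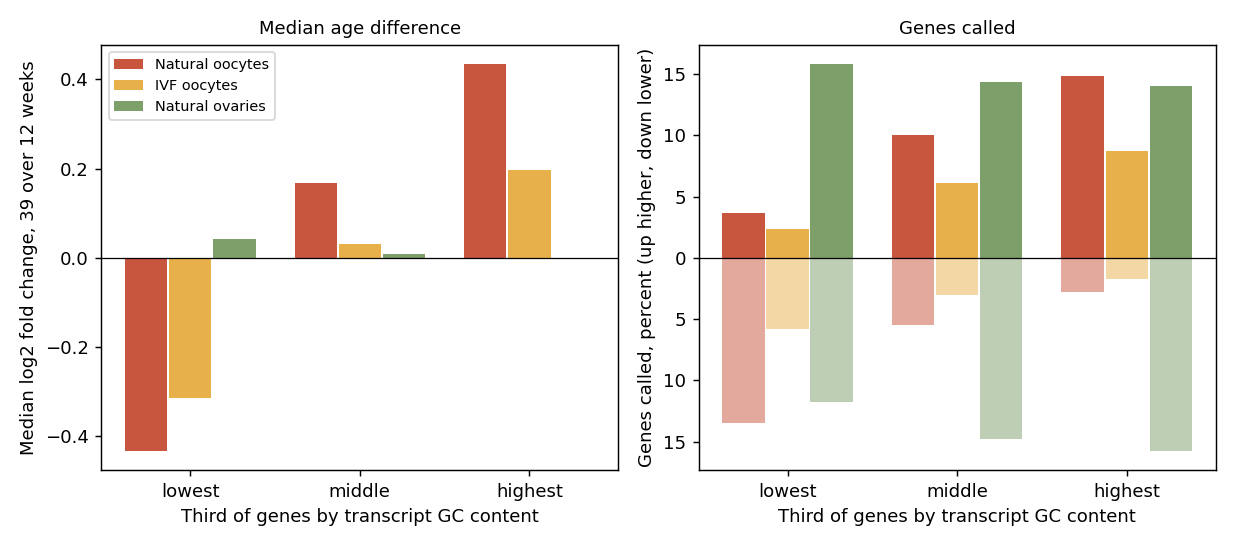
Median log2 fold change from 12 to 39 weeks (left) and percent of genes called higher or lower (right) for genes of low, middle and high transcript GC content, in Natural oocytes, IVF oocytes and Natural ovaries (bar colours; pale bars point down for genes called lower). In Natural oocytes the medians run from -0.43 to 0.43 and in IVF oocytes from -0.31 to 0.20, while in Natural ovaries they stay between -0.00 and 0.04.

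Among genes with at least 10 CPM at each age whose single oocytes did not overlap, 61 rose and 105 fell, and the 8 largest of each that were not predicted genes are described first. The largest rise was that of Eif1ad, which encodes a protein with an eIF1A-like domain and lies at chr19:5366813-5371518 (GRCm38). Its 5 sets at 12 weeks held 16.0, 17.3, 15.8, 18.8 and 17.4 CPM, and the lowest, median and highest 39-week oocyte 88.8, 124 and 216 CPM. The sets were close to each other and every 39-week oocyte was far above them (log2 fold change 3.03 ± 0.21, adjusted p = 7.13e-06). Eif4e1b at chr13:54783994-54788459, an oocyte cap-binding protein that holds maternal mRNAs in store, held 172, 217, 268, 328 and 209 CPM at 12 weeks and 897, 1432 and 1629 CPM (lowest, median, highest) at 39 weeks. The ages were separated and the rise was 2.56 ± 0.34 (adjusted p = 0.000327). Natd1 at chr11:60902246-60913792, named for its N-acetyltransferase domain, held 233, 251, 271, 327 and 225 CPM at 12 weeks and 1039.6, 1690.1 and 2123 CPM at 39 weeks. No 12-week oocyte reached the lowest of these (2.64 ± 0.24, adjusted p = 4.17e-05).

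The other 5 rises were those of Cntnap1 (2.82), a membrane protein of the junctions between axons and myelin, the zinc finger gene Zfp142 (2.63), Nosip (2.60), a ubiquitin ligase that binds nitric oxide synthase, the notochord homeobox gene Noto (2.57) and the Ikaros-family gene Ikzf4 (2.55). Noto held 18.52, 20.7, 20.6, 29.0 and 19.3 CPM at 12 weeks and 68.1, 119.6 and 238 CPM at 39 weeks, and Ikzf4 held 43.4, 43.7, 28.3, 39.0 and 53.0 CPM and 125, 253 and 370.4 CPM. In Cntnap1 the highest 39-week value, 741 CPM, was that of oocyte 9, which stood apart, and without the oocytes that stood apart its log2 fold change was 2.03. All 8 rises were called in the 3 fits, and the GC content of these genes lay between 50.1% and 57.1%, against a median of 49.0% over all genes tested and 52.5% over those called higher.

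The falls were larger. Paip1 at chr13:119428331-119460323, whose protein binds the poly(A)-binding protein and stimulates translation, held 5516, 3115, 3952, 3329 and 2578 CPM in the 5 sets at 12 weeks. At 39 weeks its lowest, median and highest values were 25.8, 40.6 and 73.8 CPM. The lowest single oocyte of 12 weeks, at 1427 CPM, was well above the highest of 39 weeks, and the log2 fold change was -6.66 ± 0.63 (adjusted p = 4.25e-05). Ptp4a2 at chr4:129811165-129850003, a membrane-bound protein tyrosine phosphatase, held 2316, 1519, 1937, 1558 and 1837 CPM at 12 weeks and 68.9, 129.6 and 176 CPM at 39 weeks. It was the next largest fall (-3.96 ± 0.42, adjusted p = 7.68e-05), again without overlap. Ybx1, a Y-box protein that packages mRNAs, held 298, 347, 284, 328 and 332 CPM at 12 weeks and 22.4, 31.1 and 52.1 CPM at 39 weeks (-3.36 ± 0.34, adjusted p = 6.28e-05). Gtf2a1, which encodes the large subunit of the general transcription factor TFIIA, held 1273, 1306, 1227, 1036 and 1219.7 CPM and 60.7, 119 and 163 CPM (-3.38 ± 0.37, adjusted p = 8.17e-05). In both genes the 12-week sets differed little from each other and every 39-week oocyte lay below every 12-week oocyte.

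The remaining falls were those of the long noncoding RNA Tug1 (-3.47), the kinase gene Csnk2a1 (-3.31), Cdv3 (-3.27) and Rb1cc1 (-3.09), whose protein FIP200 starts autophagosome formation. Rb1cc1 held 212, 182, 192, 148 and 188 CPM at 12 weeks and 5.77, 24.4 and 42.6 CPM at 39 weeks (adjusted p = 8.85e-05). Csnk2a1 held 113, 196, 102, 84.2 and 46.6 CPM in the sets, and its call was lost with the offsets at a log2 fold change of -2.80 (adjusted p = 0.0571), whereas the other 7 were called in all 3 fits. The GC content of the 8 genes lay between 37.9% and 52.1%, and the median over all genes called lower was 44.4%.

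**Figure D3:**
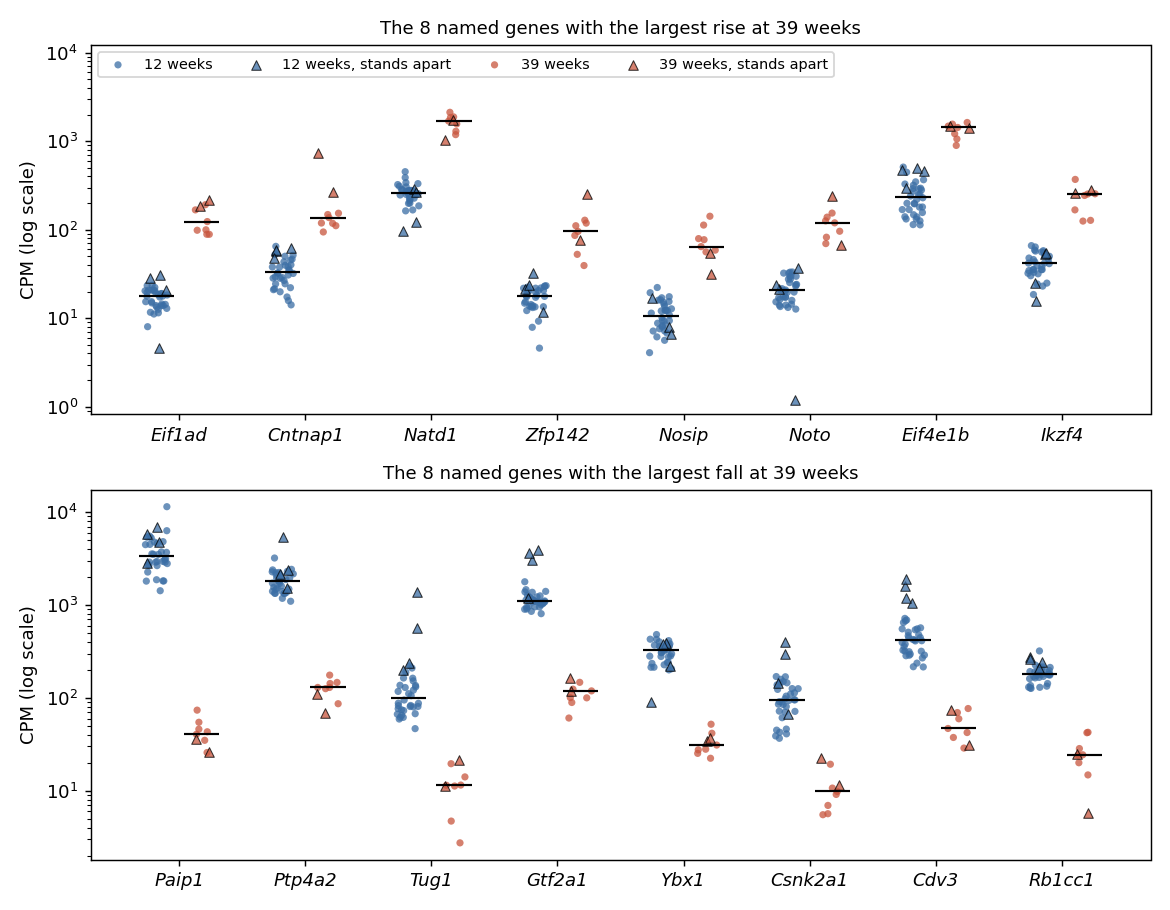
Level of the 8 largest rises and 8 largest falls without overlap, in CPM on a log scale, with one point for each oocyte of 12 weeks (blue) and 39 weeks (red), triangles for oocytes that stood apart and lines at the medians. Oocytes without a count are off the log axis, which holds for 1 of the 36 in Nosip. In all 16 genes every 39-week oocyte lies on the same side of every 12-week oocyte, from Eif1ad (4.57 to 30.9 CPM against 88.8 to 216 CPM) to Paip1 (1427 to 11472 CPM against 25.8 to 73.8 CPM).

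A second kind of change was between a level and almost none. Of the genes with at most 3 counts in each of the 36 oocytes of 12 weeks, 316 rose, 192 of them predicted genes. Of those with at most 3 counts in each of the 9 oocytes of 39 weeks, 43 fell, 8 of them predicted. These numbers cannot be set against each other, since the limit covered 36 oocytes of lower depth and 9 of higher depth. How many tested genes met each limit was not counted. The filter kept a gene that had enough counts in a single summed sample. A gene with almost none at 12 or at 39 weeks could therefore enter the test only through samples where it was high. Such calls follow partly from the filter and are given as descriptions. The 4 rises of the highest level came largely from oocyte 9, which stood apart. The tight junction gene Cldn6 had no counts at 12 weeks and 953 at 39 weeks, at least 619-fold higher against a floor of 3 counts over the group, with 923 of the 953 in a single oocyte. Lpar5, a receptor for lysophosphatidic acid, had 1816 counts at 39 weeks, in 2 oocytes, and the long noncoding RNA Mirt1 had 487, also in 2. Without the oocytes that stood apart the calls of all 3 were lost (adjusted p = 0.0502, 0.158 and 0.0556). Scn4a, a muscle sodium channel, had counts in 5 of the 9 oocytes of 39 weeks and in 2 of 36 at 12 weeks, reached 50.9 CPM in oocyte 9, and was called in all 3 fits.

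The falls to almost none were spread over most oocytes. Cebpb, a leucine zipper transcription factor, had counts in 35 of 36 oocytes at 12 weeks, with 3.12, 3.03, 3.77, 3.77 and 5.04 CPM in the sets, and 2 counts in 1 of 9 oocytes at 39 weeks. The golgin gene Gcc1 had counts in 32 of 36 oocytes and in none of 9, at least 93.2-fold lower against a floor of 3 counts over the group, and its sets held 0.893, 4.59, 1.02, 2.71 and 3.49 CPM. The glycine receptor gene Glrb had counts in 32 of 36 oocytes and 2 of 9, and the orphan receptor gene Gpr27 in 33 of 36 and 2 of 9. All 4 were called in the 3 fits, and all 4 were expressed at a few CPM at 12 weeks.

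Of 30 oocyte and meiosis genes chosen for description, 29 were tested, and 7 rose and 3 fell (9.14% and 6.36% over all genes). Rec8, the meiotic cohesin subunit, had too few counts to be tested. The genes for the growth factors that the oocyte sends to its follicle, Gdf9 and Bmp15, were not called on all oocytes (log2 fold changes -0.11 and 0.50). Bmp15 was called higher without the oocytes that stood apart (0.78, adjusted p = 0.023) and with the offsets (1.07, adjusted p = 0.00709). The egg coat gene Zp2 held 68.3, 72.6, 74.6, 96.5 and 84.3 CPM in the 12-week sets and 144, 281 and 646 CPM in the lowest, median and highest 39-week oocyte. All 9 oocytes were above all 36, the rise was 1.76 ± 0.29 (adjusted p = 0.00127), and it was called in all 3 fits. Zp1 rose by 1.5 but not with the offsets (adjusted p = 0.0592), and Zp3 was not called (0.53). Of the 10 genes for growth factors and the egg coat, 2 rose and 2 fell, the falls being those of the oocyte-secreted proteins Oosp2 (-1.44) and Oosp3 (-1.32). Neither fall was called with the offsets (-1.20, adjusted p = 0.0725, and -0.69, adjusted p = 0.14).

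Among 11 oocyte transcription factors tested, 2 rose and 1 fell (9.14% and 6.36% over all genes). The 3 calls were made in all 3 fits (4.23% and 4.39% over all genes). Nobox, a homeobox gene needed for follicles to form and grow, held 44.0, 64.5, 56.8, 67.5 and 56.3 CPM at 12 weeks and 69.9, 223 and 299.8 CPM at 39 weeks (1.89 ± 0.27, adjusted p = 0.000489). Foxo3, which keeps primordial follicles dormant, held 216, 236, 269, 321 and 202 CPM and 549.7, 671 and 944 CPM (1.51 ± 0.24, adjusted p = 0.00111). In Foxo3 the single oocytes of the 2 ages did not overlap, and in Nobox they did. Taf4b, a TFIID subunit of the germ line, held 34.1, 37.4, 28.5, 31.0 and 28.2 CPM at 12 weeks and 0, 8.63 and 26.2 CPM at 39 weeks, a fall of -1.78 ± 0.33 (adjusted p = 0.00278).

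The subcortical maternal complex lies under the egg membrane and is needed for the first cleavages. Of its 8 genes 2 rose, Khdc3 (1.33) and Zbed3 (1.12), neither in all 3 fits, where 9.14% of all genes rose. Without the oocytes that stood apart 6 of 8 were called higher, against 11% of all genes. With the offsets 2 of 8 were called higher, against 7.87%. Among 12 maternal-effect genes 2 rose in all 3 fits, against 4.23% of all genes. Dppa3, whose protein Stella shields the egg genome from changes in DNA methylation, held 1162, 1195, 1377, 1680.3 and 1530.3 CPM at 12 weeks and 2119, 3478 and 4538 CPM at 39 weeks. Every 39-week oocyte was above every 12-week oocyte, with a rise of 1.38 ± 0.24 (adjusted p = 0.0022). The heat shock regulator Hsf1 rose by 1.43, with 1288 CPM in oocyte 9 against a median of 209 CPM at 39 weeks. Without the oocytes that stood apart Hsf1 rose by 0.72, and with the offsets as well it was not called (0.42, adjusted p = 0.257). Ctcf, the insulator protein, fell (-0.91) but not with the offsets (adjusted p = 0.0701). Among 12 genes of fertilization and egg activation, the calcium entry genes were split. The T-type channel gene Cacna1h rose (1.53) while Trpm7 (-1.82) and Orai1 (-1.54) fell, in all 3 fits. Cacna1h held 136 CPM in oocyte 9 against a median of 33.3 CPM at 39 weeks. With the offsets and without the oocytes that stood apart Cacna1h was not called (0.66). Stim1, of the same list, rose by 2.74, but was not called without the oocytes that stood apart (1.76).

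**Figure D4:**
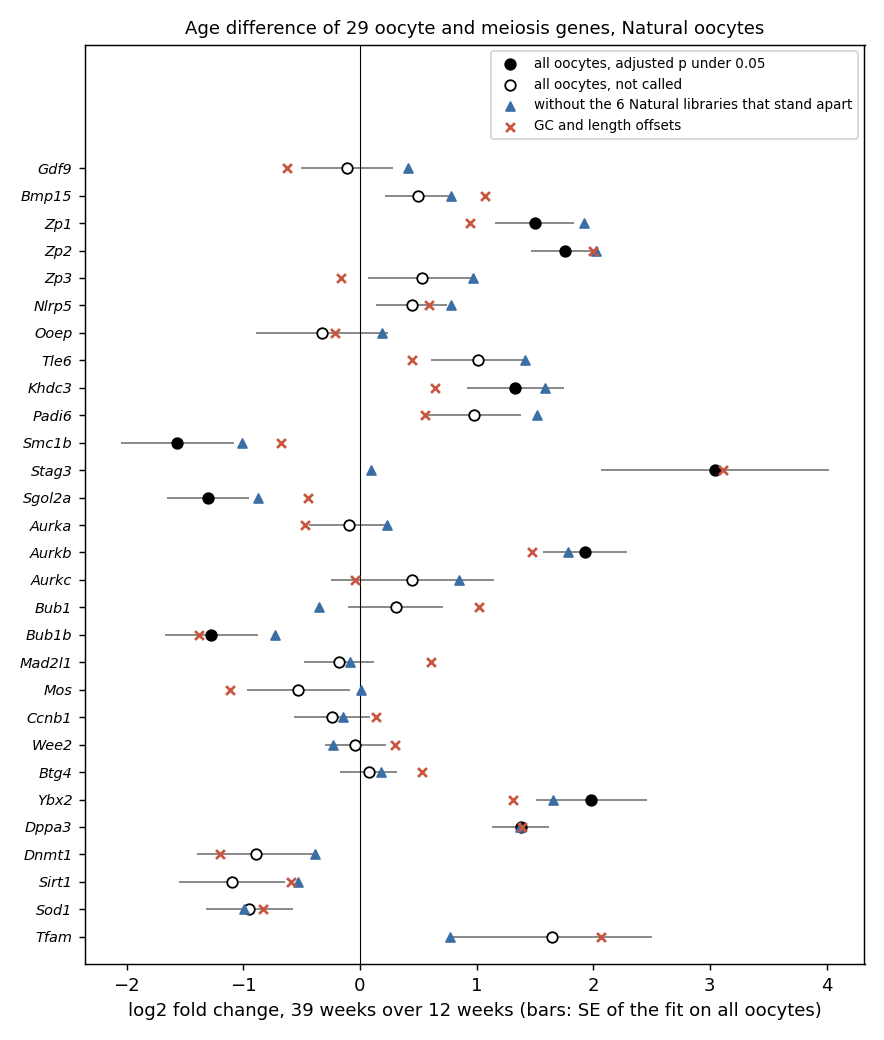
Log2 fold change from 12 to 39 weeks of 29 oocyte and meiosis genes, with the SE of the fit on all oocytes as bars, filled circles where the adjusted p was below 0.05, and the values without the oocytes that stood apart (triangles) and with GC and length offsets (crosses). Zp2, Aurkb and Dppa3 lie above 0 and Bub1b below 0 in every fit, whereas Stag3 moves from 3.04 to 0.09 without the oocytes that stood apart.

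Of 20 genes of cohesin and sister chromatid cohesion tested, 3 rose and 8 fell, where 9.14% of all genes rose and 6.36% fell. In all 3 fits 3 of the falls and none of the rises were called, against 4.39% and 4.23% of all genes. The strongest was Wapl, whose protein releases cohesin from chromosomes. It held 384, 394, 277, 285 and 339 CPM in the 12-week sets and 31.1, 66.3 and 106 CPM in the lowest, median and highest 39-week oocyte, without overlap between single oocytes (-2.49 ± 0.35, adjusted p = 0.00045). The acetyltransferase gene Esco1, which locks cohesin onto chromosomes, held 611, 544, 599, 388 and 524 CPM at 12 weeks and 95.5, 170.1 and 294 CPM at 39 weeks (-1.79 ± 0.34, adjusted p = 0.00311), and the ring subunit gene Smc1a fell by 1.09 on the log2 scale. Thus a releasing factor, an establishing factor and a ring subunit were lower together. The meiotic ring subunit gene Smc1b fell (-1.57) from 18.3, 11.5, 11.7, 11.5 and 13.5 CPM at 12 weeks to 0, 5.57 and 13.9 CPM at 39 weeks, and Sgol2a, which protects centromeric cohesin, also fell (-1.30), but neither was called with the offsets (adjusted p = 0.233 and 0.241), and Smc1b was not called without the oocytes that stood apart either (adjusted p = 0.0822). The median GC content of the list was 42.1%. The rise of the meiotic subunit gene Stag3 (3.04) rested on oocyte 9, at 12.2 CPM, and was 0.09 without the oocytes that stood apart.

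Of 22 kinases and checkpoint proteins that watch chromosome attachment 4 rose and 5 fell (9.14% and 6.36% over all genes), and 2 of each were called in all 3 fits (4.23% and 4.39%). Aurkb, a catalytic subunit of the chromosomal passenger complex, held 11.7, 15.2, 8.46, 15.1 and 7.83 CPM at 12 weeks and 19.4, 36.4 and 87.8 CPM at 39 weeks. The 39-week values all lay above the highest set, and the rise was 1.93 ± 0.36 (adjusted p = 0.00297). Birc5, the survivin subunit of the same complex, rose by 1.18. The checkpoint gene Bub1b, for BUBR1, held 2659, 2069, 2428, 2637 and 2337 CPM at 12 weeks and 0.980, 1326 and 1726 CPM at 39 weeks. It fell by 1.27 ± 0.40 on the log2 scale (adjusted p = 0.0428), and by 0.73 without the oocytes that stood apart, which held 0.980 to 21.4 CPM of it. The spindle motor gene Kif11 fell (-1.81), while Aurka, Aurkc, Bub1 and Mad2l1 were not called (-0.09, 0.45, 0.31 and -0.18).

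In the list for actin and spindle positioning none of 16 genes rose and 3 fell, where 9.14% of all genes rose and 6.36% fell. The 3 falls were called in all 3 fits, against 4.39% of all genes. Actr2, an Arp2/3 subunit that nucleates the actin of the cortex, held 131, 107, 125, 130.3 and 126 CPM at 12 weeks and 9.61, 28.3 and 45.6 CPM at 39 weeks, without overlap (-2.14 ± 0.34, adjusted p = 0.00111). Rhoa, the GTPase of the contractile ring, held 60.1, 97.2, 95.1, 129.6 and 153 CPM and 6.31, 23.8 and 62.1 CPM (-2.24 ± 0.51, adjusted p = 0.00932), and the vesicle motor gene Myo5b fell by 1.26 on the log2 scale. For meiotic arrest and resumption, 4 of 21 genes rose and 2 fell (9.14% and 6.36% over all genes). The receptor gene Gpr3, which keeps cyclic AMP high and so the oocyte arrested, rose (1.49), whereas Gnas, its G protein, fell (-1.92), as did the CDK1-activating phosphatase gene Cdc25a (-2.17), all in the 3 fits. The rise of Cdk1 itself (2.13) was 0.16 without the oocytes that stood apart. Mos, Ccnb1 and Wee2, which hold or release meiotic arrest, were not called (-0.53, -0.24 and -0.04).

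Of the 39 lists, that of maternal mRNA storage had the largest share of falls called in all 3 fits, 6 of 19 genes, where the share over all genes was 4.39%. On all oocytes 3 of its genes rose and 8 fell, where 9.14% of all genes rose and 6.36% fell. The storage granule gene Lsm14b held 198, 157, 229.7, 254 and 249 CPM at 12 weeks and 0.815, 23.8 and 153 CPM at 39 weeks. It fell by 2.93 ± 0.43 on the log2 scale (adjusted p = 0.000563), and its paralog Lsm14a by 1.47. The RNA-binding protein gene Khdrbs1 (Sam68) held 25.1, 36.6, 24.3, 28.8 and 31.6 CPM at 12 weeks and 0, 3.91 and 5.57 CPM at 39 weeks, with no overlap (-3.28 ± 0.43, adjusted p = 0.000327). The other falls in all 3 fits were those of Igf2bp2 (-1.63) and Igf2bp3 (-2.17), which stabilize mRNAs, and of Cpeb1 (-1.13), which controls cytoplasmic polyadenylation. Opposite to these, Eif4e1b, described above, and its partner Eif4enif1 (0.89) rose in all 3 fits. Ybx2, which coats stored mRNAs in germ cells, rose by 1.98 at levels of a few CPM, but not with the offsets (adjusted p = 0.0918).

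Of 25 maternal mRNA decay genes, 4 rose and 6 fell, where 9.14% of all genes rose and 6.36% fell. Subunit genes of the CCR4-NOT deadenylase changed in both directions, since Cnot11 held 73.8, 73.3, 64.8, 100.1 and 88.2 CPM at 12 weeks and 0, 18.0 and 37.3 CPM at 39 weeks (-2.48 ± 0.47, adjusted p = 0.00301), while Cnot10, at about 1 CPM, rose by 1.92. The PAN2 partner gene Pan3 fell (-1.5) without overlap between single oocytes. Btg4, which brings CCR4-NOT to maternal mRNAs, held 6737, 6872, 6783, 7234 and 6589 CPM and 4651, 6541 and 9099 CPM, nearly the same at both ages (0.08 ± 0.25, adjusted p = 0.88). Translation factors showed no rise and 4 falls among 31 genes. Eif4g2, which supports translation without the cap, held 619.6, 472, 483, 425 and 565 CPM at 12 weeks and 97.0, 190.3 and 245 CPM at 39 weeks, without overlap (-1.61 ± 0.31, adjusted p = 0.00358), and the eIF3 subunit genes Eif3e (-2.29) and Eif3a (-1.54) fell in all 3 fits.

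Few ribosomal and respiratory genes were called, where 15.5% of all genes were. Of 46 genes for the large cytosolic ribosomal subunit 1 was called, and of 32 for the small subunit 2, none of them in all 3 fits. These were Rpl18 (1.77), Rps15 (2.81) and Rps28 (1.33). Many ribosomal protein genes have processed pseudogenes that can share their reads. Of 37 complex I genes 2 rose and none fell, and of 40 nuclear genes of complexes II to V 3 rose and none fell. Levels were low. The large-subunit genes together had a median of 278 CPM per 12-week oocyte and the small-subunit genes 153 CPM. The complex I genes had 202 CPM and those of complexes II to V 1126 CPM. At such levels few calls do not show that the genes were unchanged. Atp5b, the catalytic subunit of ATP synthase, held 389, 521, 381, 468 and 415 CPM at 12 weeks and 654, 956 and 1566 CPM at 39 weeks (1.19 ± 0.26, adjusted p = 0.00671). None of the 10 mitochondrially encoded genes tested was called on all oocytes, with a median log2 fold change of -0.02. Without the oocytes that stood apart 4 of 10 were called higher, against 11% of all genes, and the median was 0.47. Their share of all counts was 0.202% to 3.68% per oocyte at 12 weeks and 0.234% to 1.00% at 39 weeks. In the 32 oocytes of 12 weeks that did not stand apart it was at most 0.788%.

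Of 26 genes of mitochondrial DNA, dynamics and quality control 5 rose and 1 fell, where 9.14% of all genes rose and 6.36% fell. The 2 mitofusins, which fuse the outer membranes, went opposite ways in all 3 fits. Mfn1 held 57.9, 63.9, 53.3, 55.3 and 63.7 CPM in the 12-week sets and 16.0, 22.1 and 31.9 CPM in the lowest, median and highest 39-week oocyte, and fell by 1.42 ± 0.27 on the log2 scale (adjusted p = 0.00308). Mfn2 held 5.13, 9.08, 7.64, 8.5 and 8.44 CPM and 0.818, 16.5 and 86.9 CPM, and rose by 2.10 ± 0.54 (adjusted p = 0.0178). The single oocytes overlapped widely for Mfn2 and narrowly for Mfn1. Tfam, which packages mitochondrial DNA, was not called (1.65). Of 77 mitochondrial ribosomal protein genes 10 rose and 2 fell, 3 and 1 of them in all 3 fits.

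Among 37 histone methylation enzymes 4 rose and 9 fell, where 9.14% of all genes rose and 6.36% fell. In all 3 fits 1 rise and 6 falls were called, against 4.23% and 4.39% of all genes. Kmt2d, which places methyl groups on enhancers, held 245, 328, 291, 313 and 298 CPM at 12 weeks and 403, 1007 and 1311 CPM at 39 weeks. It rose by 1.77 ± 0.21 (adjusted p = 0.000146), with overlap between single oocytes. The heterochromatin methyltransferase gene Suv39h2 held 46.7, 54.6, 36.1, 43.5 and 36.7 CPM and 3.64, 10.2 and 19.3 CPM, and fell without overlap (-2.30 ± 0.43, adjusted p = 0.00292). Polycomb repressive complex 2 was lower in its catalytic subunit gene Ezh2 (-2.22) and in Eed (-1.26), and the demethylases of the same histone mark, Kdm6a (-1.56) and Kdm6b (-1.51), fell as well. Of the deacetylases and sirtuins Hdac2 was the 1 of 17 called, from 30.3, 27.4, 22.1, 29.6 and 36.6 CPM at 12 weeks to 2.24, 4.46 and 14.9 CPM at 39 weeks, without overlap (-2.34 ± 0.35, adjusted p = 0.000694), and Sirt1 was not (-1.10). Of 17 DNA methylation genes 2 rose, Dppa3 and Dnmt3l (1.52, not with the offsets, adjusted p = 0.101), while the maintenance enzyme gene Dnmt1 was not called (-0.89).

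The antioxidant list had 6 rises and 3 falls among 30 genes (9.14% and 6.36% over all genes), 3 of each in all 3 fits. Gclm, the modifier subunit of the enzyme that starts glutathione synthesis, held 33.5, 28.0, 31.9, 32.7 and 28.7 CPM at 12 weeks and 0, 2.40 and 7.77 CPM at 39 weeks. Its fall of 3.42 ± 0.42 on the log2 scale (adjusted p = 0.000194) was accompanied by falls of Txnrd1 (-1.73), the thioredoxin reductase, and of Keap1 (-1.81), the sensor that restrains the NRF2 response. Sod2 (1.17), Prdx2 (2.25) and Glrx (1.2), which remove superoxide, peroxide and protein disulfides with glutathione, rose. Prdx2 held 2190.1 and 2210.2 CPM in oocytes 6 and 9, which stood apart, and 62.5 to 511 CPM in the other 7. Without the oocytes that stood apart its rise was 1.44, and with the offsets as well it was not called (1.19, adjusted p = 0.0703). The cytosolic superoxide dismutase gene Sod1 held 13.8, 12.1, 25.0, 19.9 and 15.9 CPM and 1.14, 8.84 and 23.0 CPM and was not called (-0.95 ± 0.37, adjusted p = 0.0968). Among 31 chaperones 3 rose and 3 fell, and Dnajb1, the partner of inducible HSP70, was the 1 called in all 3 fits, from 124, 104, 117, 101 and 106 CPM at 12 weeks to 188, 243 and 554 CPM at 39 weeks, without overlap (1.47 ± 0.25, adjusted p = 0.00142).

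Of 26 autophagy genes 5 rose and 7 fell (9.14% and 6.36% over all genes), 3 of each in all 3 fits (4.23% and 4.39%). Next to Rb1cc1, the conjugation enzyme gene Atg3 fell (-2.10) and so did the lysosomal membrane gene Lamp1 (-1.32). Atg9a, a membrane supplier of the autophagosome, held 14.7, 14.5, 17.2, 22.5 and 20.0 CPM at 12 weeks and 0.218, 64.9 and 122 CPM at 39 weeks and rose (1.68 ± 0.28, adjusted p = 0.00161), as did Atg4b (1.17) and Atg14 (0.80). Of 33 proteasome genes 2 rose and 3 fell, 2 of the falls in all 3 fits. Of 40 DNA repair genes 4 rose and 3 fell, shares close to the 9.14% and 6.36% of all genes, and the Fanconi anemia genes Fancd2 (-1.67) and Fancm (-1.62) were among the falls in all 3 fits.

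Of 20 piRNA pathway genes 1 rose, Tdrd1 (1.01), and 2 fell, where 9.14% of all genes rose and 6.36% fell. Of 15 one-carbon genes 2 rose and 1 fell, none in all 3 fits, and of 8 Nlrp genes outside the subcortical complex only Nlrp9a was called, lower (-1.05), and with the offsets it was not (-0.26, adjusted p = 0.512). Of 21 senescence and inflammation genes 2 rose and 3 fell, and the nuclear lamina gene Lmnb1 was among the falls (-1.29). Of 19 immediate early genes Egr1, a zinc finger transcription factor, rose in all 3 fits, from 9.72, 6.92, 8.71, 7.04 and 11.0 CPM at 12 weeks to 41.2, 54.8 and 84.4 CPM at 39 weeks, without overlap (2.85 ± 0.34, adjusted p = 0.00015), and Jund fell (-3.40). Without the oocytes that stood apart the log2 fold change of Jund was -2.81 and its call was lost (adjusted p = 0.0772). Of 13 early embryo genes 4 rose, but Zfp352, with 2231 of its 2237 counts at 39 weeks in 1 oocyte, and Tdpoz3, with all of its 325 counts in 1, were not tested without the oocytes that stood apart because too few counts were left. Of 6 RNAs without a long poly(A) tail 1 was called, the histone gene Hist1h4h, on 52 counts. Zfp352, Tdpoz3 and Hist1h4h had almost no counts in Natural oocytes at 12 weeks. They entered the test through samples where they were higher, so their calls are descriptions.

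**Figure D5:**
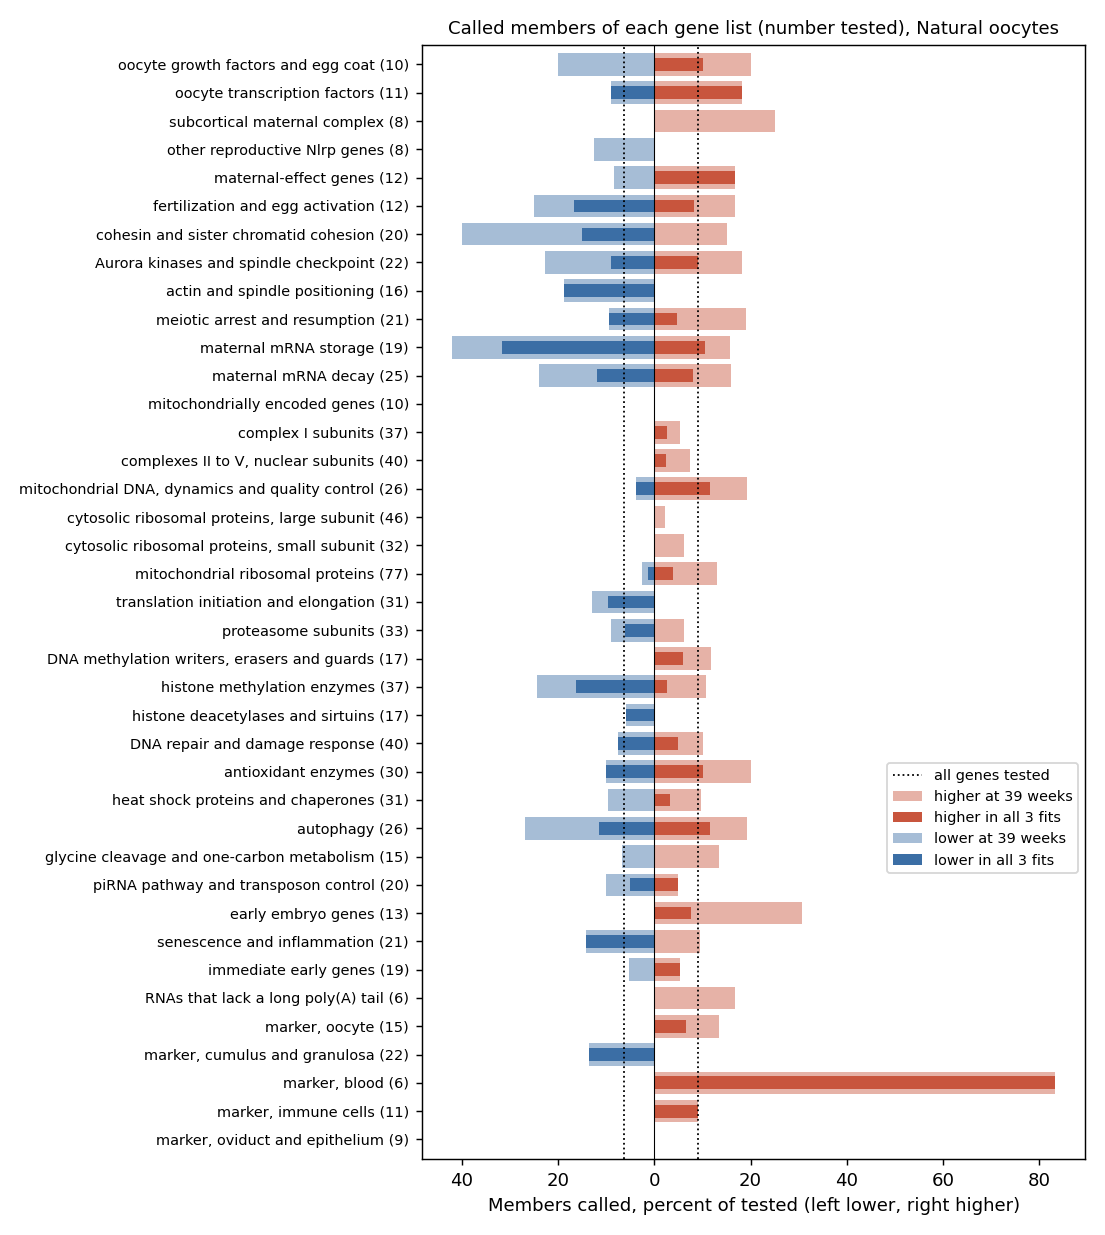
Percent of the tested members of each gene list that were called lower (left) or higher (right) at 39 weeks, with the number tested in brackets, pale bars for the fit on all oocytes and dark bars for calls made in all 3 fits. Dotted lines mark the 9.14% of all genes called higher and the 6.36% called lower, and the widest bar is that of the blood markers, with 5 of 6 members higher.

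IVF oocytes gave the same comparison in other animals. Between their 40 oocytes at 12 weeks, in 5 sets, and 10 at 39 weeks, 1084 genes (5.12%) rose and 648 (3.06%) fell, together 8.19% of 21156. Of the genes called higher in Natural oocytes 589 were also called higher in IVF oocytes, 30.5% of the Natural and 54.3% of the IVF list, and 446 genes were called lower in both, 33.2% and 68.8%. The 2 comparisons use different oocytes, and in both the ages were separate libraries. They came from the same fit and share the filter, the scaling and the spread estimate of each gene. The shared calls are therefore partly built in and are no separate test. The 12-week oocyte sets of Natural and IVF have no name in common. However, the oocytes of set 126_2 are labelled IVF, while a 12-week cumulus library named 126_2_GC is labelled Natural. All 16 of the largest changes named above were called in the same direction in IVF oocytes. Paip1 fell by 5.01 on the log2 scale there and Eif1ad rose by 3.18. The globin gene Hbb-bt rose by 5.26, and Wapl (-2.04), Khdrbs1 (-2.59), Gclm (-2.32), Foxo3 (1.53) and Dppa3 (1.42) were called as well. Bub1b was not (log2 fold change -0.07, adjusted p = 0.966), nor were Mfn2 (0.16, adjusted p = 0.944) and Gcc1 (-0.88, adjusted p = 0.645). The difference between the age changes was tested as an interaction, and edgeR's quasi-likelihood test called 0 of 21156 genes (2237 at an unadjusted p below 0.05). DESeq2 called 294 and edgeR without the oocytes that stood apart called 4, and for Bub1b and Mfn2 the adjusted p of the edgeR interaction was 0.447 and 0.466.

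Whole ovaries of Natural females, 4 at 12 weeks and 5 at 39 weeks, had 2509 genes higher and 2482 lower at 39 weeks (28.2% of 17710 tested). Of the genes called in oocytes 413 were called in ovaries in the same direction and 435 in the opposite one, 12.6% and 13.3% of the oocyte calls and 8.27% and 8.72% of the ovary calls. In an ovary the oocytes are a small part of the RNA, and fewer oocytes and less RNA per oocyte cannot be told apart. Of the 16 largest changes, Natd1 (0.38), Zfp142 (0.39), Nosip (0.27) and Gtf2a1 (-0.73) were called in the same direction in ovaries. Rb1cc1 (0.37) and Tug1 (0.35) were higher there, opposite to oocytes, as was Wapl (0.39). Dppa3, which rose in oocytes, was lower in ovaries (-1.12), and Foxo3 was higher in both (0.43 in ovaries).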

How the data were processed

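Single-oocyte RNA-seq counts of Natural mice at 12 weeks (36 oocytes) and 39 weeks (9 oocytes) were analysed, with IVF oocytes and Natural ovaries for comparison. The authors deposited the tables as unnormalized counts of reads per gene, and 65.6% to 77.8% of the nonzero values of each 12-week oocyte were even, so both reads of a pair appear to be counted. The oocyte libraries were made with a modified SMART-seq protocol and Nextera kits, and those of ovaries with a stranded mRNA kit. The authors' methods name trimgalore, STAR on mm10 and featureCounts, while the submitters' processing notes list Trimmomatic 0.32, STAR 2.3.0e and featureCounts 1.5.0. The handling of strand and of reads with several matches is not given in the sources used here, so antisense and near-identical genes cannot be separated. 18 further columns of values in the files used were left out.

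The 36 oocytes were summed to 5 library sets and the 9 to 1 sample, since the 39-week labels name no female. edgeR 4.0.16 in R 4.3.3 (TMM, filterByExpr, quasi-likelihood test, two-sided) was fitted over 4 groups, Natural and IVF at each age, with Benjamini-Hochberg adjustment over all genes tested. Standard errors were taken from the F statistic, and CPM values were scaled by total gene counts without TMM. Ovaries were fitted on their own. GC content and length came from GENCODE M21 transcripts, and offsets from a loess fit (span 0.3) of log counts on both. A library stood apart when its mean Spearman correlation with its group, over genes above 5 CPM, was below 0.75. That limit, the offsets and the fits with them were chosen after seeing the data. Other alternatives were DESeq2 1.42.0, other scalings and filters, single oocytes as samples, thinning to one depth, and leaving out each set or oocyte. The edgeR fit was tested on simulated data, with 200 genes given a known age difference. It recovered 5 of the 200 at a log2 fold change of 1 and 110 at 2. A gene that was not called is therefore not shown to be unchanged. No pair of libraries was found to be a repeat of the same one.

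The members and the 39 gene lists were chosen with earlier results of these data known. Genes named are 30 oocyte and meiosis genes, the 2 largest called rises and falls of each list, the 8 largest rises and 8 largest falls with at least 10 CPM at each age and no overlap of single oocytes, and in each direction the 4 with the highest level among called genes with at most 3 counts in every oocyte of the other age. Predicted genes were counted and not named under the last 2 rules. Further called members of a list are named in the text after their values were seen, as is Slc4a1. The table's Sgol2a and Casc5 are now Sgo2a and Knl1.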

Additional observations from a re-analysis of the deposited data

Results flagged for a closer look

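In groups of 5 sets or 9 oocytes, 17 of 112 groups held a value far from the others, measured as the gap to its neighbour over the range, where chance gives about 1 in 20 (5%). The 39-week oocyte 9, which stood apart, held 10 of these values. They were 741.1 CPM for Cntnap1 (median of the other oocytes 128.1), 252.7 for Zfp142 (90.98), 238.3 for Noto (107.9), 97.75 for Lpar5 (0), 87.84 for Aurkb (36.19), 50.89 for Scn4a (0.0597), 50.23 for Cldn6 (0), 38.42 for Tfam (2.099), 25.96 for Mirt1 (0) and 12.19 for Stag3 (0). Oocyte 7 held 646 CPM of Zp2 against a median of 254 in the others, and oocyte 4 held 460.1 CPM of the immune markers against 22.97. In the 12-week sets the far values were 202.9 CPM of Tug1 in set 92_5 (median of the others 112.1), 28.96 CPM of Noto in set 92_4 (19.99), 1.819 CPM of Ybx2 in set 35_1 (4.314), 0.0666 CPM of Rec8 in set 92_4 (0), and 385.9 CPM of the cumulus and granulosa markers in set 92_5 (176.3). No gene was called for the difference between the age changes of IVF and Natural oocytes in the edgeR fit on all oocytes.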

How the results depend on the processing

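The direction split of the 3278 genes called between the ages was 59.0% higher by edgeR and 46.4% by DESeq2, which called 4156. The count lay within 1.5 times of 3278 under the other scalings and filters. It was 1478 with 5 sets against 9 single oocytes, 1405 after thinning and 5343 with single oocytes but without those that stood apart, the last chosen after seeing the data. Leaving out each set or 39-week oocyte in turn gave 2200 to 3736 calls, the lowest without oocyte 9, and 3614 to 4791 in ovaries. In IVF oocytes DESeq2 called 2950 genes and 2970 were called without the oocytes that stood apart, against 1732. The interaction called 294 genes with DESeq2 and 4 without the oocytes that stood apart. The replicate numbers do not pair the oocytes, since same-numbered oocytes correlated at -0.13 to 0.07, and the replicate block gave 2612 calls against 3578 without it. The cause of these differences was not tested. Of 126 named genes called, 49 were called the same way under every alternative that tested them, leave-one-out fits aside. With single oocytes as samples the direction turned for Gdf9 0.26, Ooep 0.10 and Aurka 0.21. With 5 sets against 9 single oocytes the direction turned for Gdf9 0.15, Aurka 0.0994 and Bub1 -0.00906. With oocytes 1 to 9 of each age the direction turned for Gdf9 0.18, Ooep 0.54 and Aurka 0.10. After thinning the direction turned for Gdf9 0.0269 and Aurka 0.0575. Without the oocytes that stood apart the direction turned for Gdf9 0.41, Ooep 0.19, Aurka 0.23, Bub1 -0.35, Mos 0.00946, Zwint -0.0300, Rps15 -0.26, Xrcc6 -0.43 and Prdx4 -0.48. With single oocytes and without those that stood apart the direction turned for Gdf9 0.44, Ooep 0.29, Aurka 0.32, Bub1 -0.0969, Mos 0.0847, Mau2 -0.00972 and Xrcc6 -0.0897. With the offsets the direction turned for Zp3 -0.16, Aurkc -0.0424, Mad2l1 0.61, Ccnb1 0.13 and Wee2 0.30. With the replicate block the direction turned for Ooep 0.20, Aurkc -0.0280 and Bub1 -0.16. With the offsets and without the oocytes that stood apart the direction turned for Ooep 0.34, Mad2l1 0.65, Ccnb1 0.21, Wee2 0.0994, Mau2 -0.12, Rpl18 -0.0587, Rps15 -0.92, Mrpl38 -0.13, Xrcc6 -0.69, Prdx4 -0.53 and Rela -0.00885. With at least 10 counts in every sample the direction turned for Aurka 0.00295 and Wee2 0.0560. Leaving out 1 library turned the direction in some fits, with log2 fold changes of Aurka -0.27 to 0.11, Btg4 -0.11 to 0.21, Bub1 -0.59 to 0.49, Cdk1 -0.0198 to 2.31, Gdf9 -0.39 to 0.25, Ooep -0.63 to 0.0264, Prdx4 -0.31 to 3.48, Rpl18 -0.0906 to 2.01, Rps15 -0.14 to 3.14, Tdpoz3 -1.73 to 10.54, Tfam -0.11 to 2.07, Wee2 -0.16 to 0.11 and Xrcc6 -0.76 to 1.73. Depth limits genes of a few counts, whose values rest on single oocytes.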
